A study of Mus musculus with 2 samples.

Results

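The microRNA genes Mir6896 to Mir7094 are a block of almost consecutively numbered mouse genes, most of which lie at the very end of an intron of a protein-coding gene. Members were chosen by symbol alone: every microRNA gene whose symbol carries a number in the range from Mir6896 to Mir7094, with or without a letter or copy number. There were 201 such genes among the 2202 microRNA genes counted. MicroRNA sequencing had been carried out on 2 libraries from the left cerebral cortex of male mice aged 14 days. The strain was B6CASTF1/J, a first-generation cross of C57BL/6 and CAST mice. Labelled as biological replicates 1 and 2, they form a single untreated group, so there were no conditions to compare. They carry 1 donor label and a sample name with 3x Males, which does not say whether animals were pooled, and nothing says that the replicates came from separate animals. Their spread may therefore be technical.

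A microRNA is a short RNA cut from a hairpin, and it guides Argonaute proteins to messenger RNAs through its seed, bases 2 to 8. In the usual route the nuclear enzyme Drosha frees the hairpin from a long transcript and Dicer then removes the loop. A mirtron takes another route, in which the spliceosome cuts out an intron that, once debranched, is itself the hairpin for Dicer. In a tailed mirtron only 1 hairpin end is made by splicing, and the rest of the intron is a tail that must be trimmed away. Because an intron begins with GU and ends in a run of pyrimidines followed by AG, such hairpins carry those letters at their ends.

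Each library gave 3189903 to 4111167 counts on the strand of a microRNA gene, 36.4 to 36.6% of its reads. Levels are given as CPM, a gene's counts scaled to a library total of 1e+06 such counts. A gene is called detected here with 10 or more counts in each library. Of the tissue markers, 8 of 8 neuron-associated microRNAs were detected, with a summed level of 48780 CPM in replicate 1 and 56605 CPM in replicate 2, while liver Mir122 stood at 51.8 and 48.0 CPM. The lowest of the 8, Mir9-1, had 10.7 and 26.3 CPM, below Mir122 in both libraries. Muscle Mir206 was detected at 20.7 and 23.8 CPM; the other 4 muscle genes had 0 counts but share an 18-base stretch with a copy, so their 0 sets no limit. Those of oligodendrocytes summed to 2521 to 2855 CPM, of microglia and leukocytes to 7545 to 9894 CPM, of endothelium to 10449 to 13176 CPM, of smooth muscle and pericytes to 5074 to 5217 CPM, and of red blood cells to 51.6 to 86.2 CPM. Single genes in a sum differed widely: the microglia and leukocyte markers ran from Mir223 (16.5 and 19.1 CPM) to Mir342 (5821 and 7986 CPM).

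The hairpins of 3 abundant members show how hairpin ends meet splice sites. They are given 5′ to 3′ from RefSeq (GRCm38.p6), with capitals at each hairpin end that coincides with the splice site of the host intron. Mir7080 and Mir6944 are whole introns, from GU to AG, whereas Mir7044 has only its AG end at a splice site. The arrangement of Mir7044 is that of most of the block, 172 of 201 members, while 14 are whole introns.
Mir7080: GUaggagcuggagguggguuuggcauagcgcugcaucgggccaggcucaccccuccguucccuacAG
Mir6944: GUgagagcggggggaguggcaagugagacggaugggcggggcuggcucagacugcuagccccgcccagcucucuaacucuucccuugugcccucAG
Mir7044: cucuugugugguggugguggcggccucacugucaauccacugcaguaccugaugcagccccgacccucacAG

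Mature forms of the leading detected members follow, with the seed in capitals, since they show the contrast between a G-rich 5p arm and a pyrimidine-rich 3p arm. Its strength varies: the lowest share of G in a printed 5p form was 36.4% (mmu-miR-7059-5p). The lowest share of C and U in a printed 3p form was 57.1% (mmu-miR-7044-3p). RefSeq sequences were matched by position and letters for 180 of the 201 members; Mir6900 and Mir7070 are named only.
mmu-miR-7080-5p: gUAGGAGCuggagguggguuugg
mmu-miR-7080-3p: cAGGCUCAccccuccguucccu
mmu-miR-6944-5p: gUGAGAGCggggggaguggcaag
mmu-miR-6944-3p: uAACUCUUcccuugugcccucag
mmu-miR-7044-5p: gUGUGGUGgugguggcggc
mmu-miR-7044-3p: aUGCAGCCccgacccucacag
mmu-miR-7066-5p: uGGGUUGGgaaaugaguagagg
mmu-miR-7066-3p: uCUACCCAuugccugccucccag
mmu-miR-7059-5p: aCCGGGGAcugcggcuuucagu
mmu-miR-7059-3p: uGUUUGCUguuuguccucccag
mmu-miR-7019-5p: aUCUGGGAggggcugucaggagu
mmu-miR-7019-3p: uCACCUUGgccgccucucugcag
mmu-miR-7069-5p: uUGGGGGCcugggagggugacac
mmu-miR-7069-3p: cCUGCCCUgccaaccccuaca

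In the gene models nearly the whole block had the position of a mirtron, with a hairpin end at a splice site. These positions come from the annotation alone, so they do not show how a hairpin is processed. Of the 201 hairpins, 191 lay wholly inside an intron on their own strand, against 42.9% of all 2202 microRNA genes and 753 of the 2001 others (37.6%). A hairpin end coincided with a splice site for 190 members (94.5%), against 9.95% of all genes and 29 of the others (1.45%). The 190 are the same number when the match must be exact to the base as when 5 or 10 bases are allowed. The intron's 3′ end, the acceptor, was the shared site in 186 members, and 187 hairpins ended in AG (93.0%), against 148 of the 2001 other genes.

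Members fell into 5 kinds by position. Both hairpin ends were splice sites in 14, the whole-intron kind, whose introns were 67 to 137 bases long. Of these hairpins, 13 began with GT in the DNA. Only the 3′ end was at a splice site in 172. Between the donor and these hairpins lay a 5′ tail with a median of 502 bases, from 7 to 36205. The reverse arrangement, a hairpin starting at the donor with the tail on the 3′ side, was found for Mir6927, Mir6936, Mir6973b and Mir6977. Mir7036b lay inside an intron away from both ends, and 10 members lay inside no same-strand intron. Of those 10, 2 reach up to 5 bases past the end of an intron and otherwise match the splice-site pattern, Mir7010 at its 3′ end and Mir7082 at both ends.

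**Figure D1:**
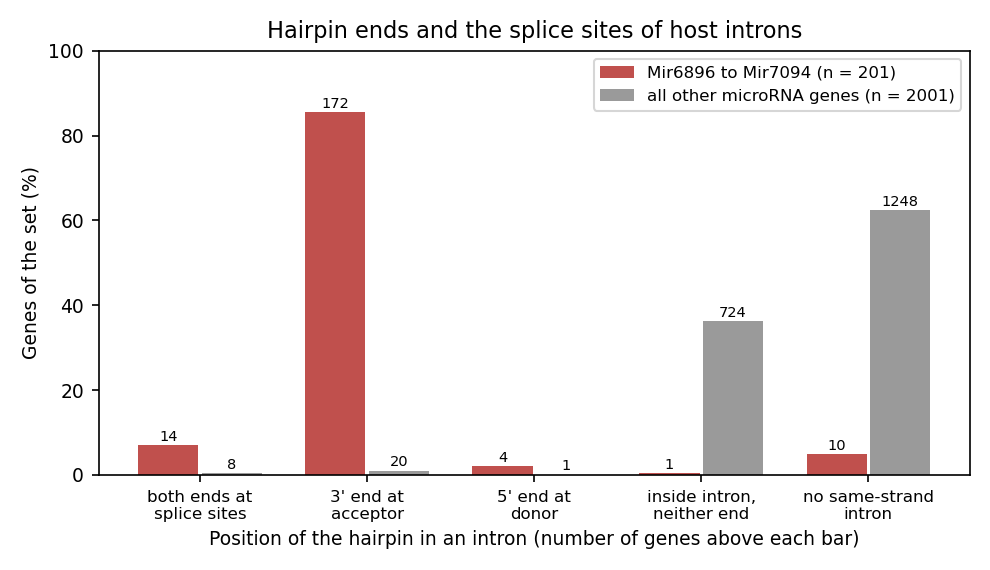
Percentage of genes (vertical axis) in each of 5 hairpin positions (horizontal axis) for the 201 members (red) and the 2001 other microRNA genes (grey), with the number of genes above each bar. The 3′ end alone is at an acceptor for 172 members and 20 other genes, while 1248 other genes lie in no same-strand intron.

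Host introns were mostly shorter than those that hold other microRNA genes. Where several introns held a hairpin equally close to a splice site, the shortest was used. The median length of member introns was 479 bases, from 66 to 36269, against 15017 bases for the introns of other genes. Of the 191, 66 were under 200 bases and 61 were of 1000 bases or more. The host was protein-coding for 189 of the 191, and there were 187 different hosts on 20 chromosomes. Exons on the same strand overlapped 41 of the hairpins, among them all 10 that lie in no same-strand intron, so a read there can also come from an exon. For members without such an overlap, counts per hairpin still do not tell mature forms from other fragments of the host transcript. The hairpins themselves had a median length of 66 bases, against 93 for the other genes.

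The arms of members differed in base composition from those of other genes, and a reason for this was not tested. Among 172 annotated 3p forms the median share of C and U was 72.5%, against 52.2% in 622 forms of other genes, and 133 forms (77.3%) ended in AG, against 10.9%. The last base of the 3p form was the last base of the hairpin in 127 (73.8%). In the 5p forms G made up a median of 44.7%, against 27.3%.

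**Figure D2:**
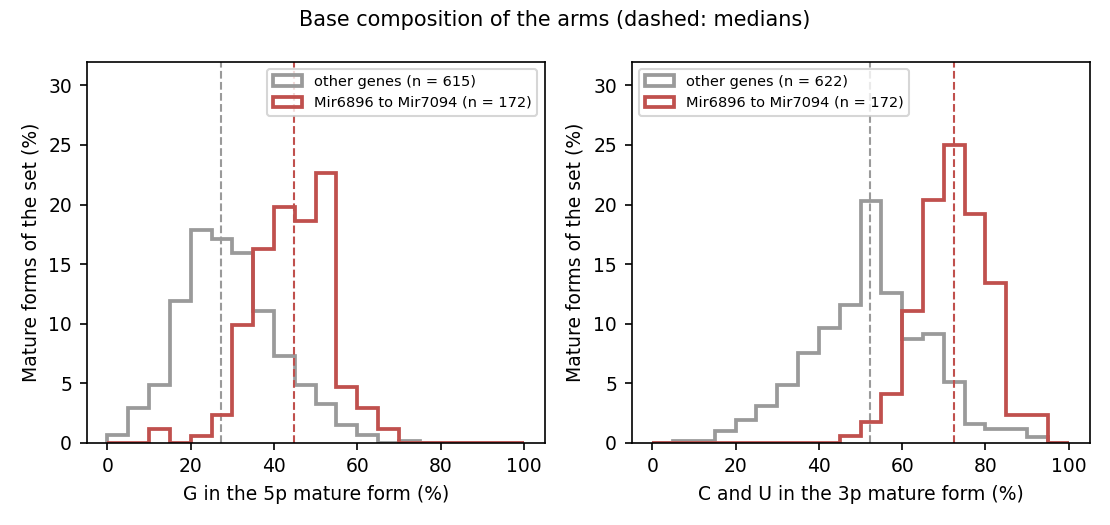
Left, share of G in 5p mature forms; right, share of C and U in 3p mature forms (horizontal axes, percent), as the percentage of forms in each 5-point bin; dashed lines are medians. The members (red, 172 forms an arm) have medians of 44.7% and 72.5%, to the right of the other genes (grey), at 27.3% and 52.2%.

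Most seeds of the block occurred in only 1 member form. The 343 mature forms of members had 317 different seeds. Of these seeds, 22 occurred in more than 1 member form, and no seed in more than 3. Mature forms of other genes also carried 35 of the 317. These other forms include mmu-miR-6967-5p, whose number is in the range but whose gene has a symbol that the choice of members did not take. The 5p forms of Mir7019 and Mir6907, both detected, share UCUGGGA. The 3p form of Mir7069 shares CUGCCCU with mmu-miR-18a-3p, which is outside the block. Counts are per hairpin and do not separate the arms, so the level of any single seed is not known from these data.

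In the cortex these genes were commonly sampled but at low levels. Detected members numbered 41 of 201 (20.4%), against 18.4% of all 2202 genes. A count in at least 1 library was found for 171 members, and 0 counts in both libraries for the other 30 (14.9%), against 69.5% of the other genes. Shared sequence bears on these shares, because reads that match several positions are counted at no gene, and a stretch of 18 bases recurs in a further, non-overlapping microRNA gene for 55.8% of the other genes but 1.99% of members. Among genes that share none, 13.7% of 197 members and 47.2% of 885 others had 0 counts, and 20.3% of these members and 31.2% of these others were detected. The median level of the detected members was 6.59 CPM, against 210 CPM for the 365 other detected genes. Liver Mir122 had a mean of 49.9 CPM here, above every member but Mir7080 and Mir6944. Detection at such levels therefore does not by itself show expression in cortical cells, and the source of the reads was not tested. Members made up 9.13% of all microRNA genes and 10.1% of the detected ones, but their counts were 0.0717% ± 0.0128 of the total (SD, n = 2). Genes numbered under 1000, named earlier, were detected in 51.8% of cases (266 of 514) and had a median of 391 CPM when detected. Those from 1000 up to the block were detected in 19.5% (median 17.4 CPM), and those numbered above the block in 11.3% (median 6.63 CPM).

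Replicate 1 held 3320 member counts, or 0.0808% (exact Clopper-Pearson 95% interval 0.0780 to 0.0835%), and replicate 2 held 1997, or 0.0626% (0.0599 to 0.0654%). Intervals cover counting error only and do not measure biological spread. Mir7080 alone gave 22.3% of the member counts in replicate 1 and 16.5% in replicate 2. Without it the shares were 0.0628% (0.0604 to 0.0652%) and 0.0523% (0.0498 to 0.0549%). The share was higher in replicate 1 with and without this gene.

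Cpne7, which encodes a copine, a calcium-dependent phospholipid-binding protein, is host to the most abundant member. Mir7080 (ENSMUSG00000098582.1; chr8:123130106-123130172, plus strand, mm10) is the whole of the 67-base intron 12 of Cpne7. It had 740 counts in replicate 1 and 329 in replicate 2, or 142 ± 54.3 CPM (SD, n = 2), and ranked 198 among the 406 detected microRNA genes. An exon on the same strand overlaps the hairpin as well.

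Dbn1 encodes drebrin, an actin-binding protein of dendritic spines, and its 96-base intron 9 is Mir6944 (ENSMUSG00000098341.1; chr13:55477681-55477776, minus strand). Counts were 444 in replicate 1 and 307 in replicate 2, or 102 ± 8.31 CPM. The means of Mir7080 and Mir6944 differed by less than the SD of Mir7080, and these were the only 2 members with a mean of at least 100 CPM. Together they gave 35.7% of the member counts in replicate 1 and 31.8% in replicate 2.

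Every other member had a mean under 100 CPM. Mir7044 (chr6:118085192-118085263, plus strand), in the 705-base intron 4 of the Ras exchange factor gene Rasgef1a, had 115 and 63 counts (23.9 ± 5.81 CPM). In an intron of Ncan, which encodes the brain matrix proteoglycan neurocan, Mir7066 had 78 and 49 counts (17.2 ± 2.55 CPM). Mir6900, in an intron of the respiratory complex I gene Ndufa10, had 80 and 38 counts (15.7 ± 5.34 CPM). These 3 all end at an acceptor, behind tails of 633 to 2838 bases. An exon on the same strand overlaps Mir7044.

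The lysosomal membrane protein gene Cln3 holds Mir7059, with 61 and 42 counts (14.0 ± 1.18 CPM). Mir7070, a whole 86-base intron of Fbxw9, an F-box protein gene, had 68 and 28 counts (12.7 ± 5.49 CPM). In Pink1, which encodes a mitochondrial kinase, Mir7019 had 44 and 43 counts (12.1 ± 1.96 CPM), and an exon on the same strand overlaps it. Only 13 of the 201 members reached a mean of 10 CPM, and Mir7070 was the lowest of the 3 whole-intron genes among them.

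Also among those 13 were Mir7069 (11.4 ± 0.104 CPM) in the phenylalanyl-tRNA synthetase gene Farsa, Mir7083 (11.2 ± 0.0683 CPM) in Dock6, Mir7004 (10.9 ± 4.26 CPM) in the phospholipid flippase gene Atp9a and Mir6934 (10.3 ± 1.66 CPM) in Tbc1d16. Counts of these 4 ran from 46 to 57 in replicate 1 and from 25 to 36 in replicate 2. The 28 detected members with a mean under 10 CPM ranged from 2.78 to 9.56 CPM. From Mir7066 down to Mir6934 the values of each gene over the libraries overlapped or met those of the next in order, so these ranks are not separated by the replicates.

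**Figure D3:**
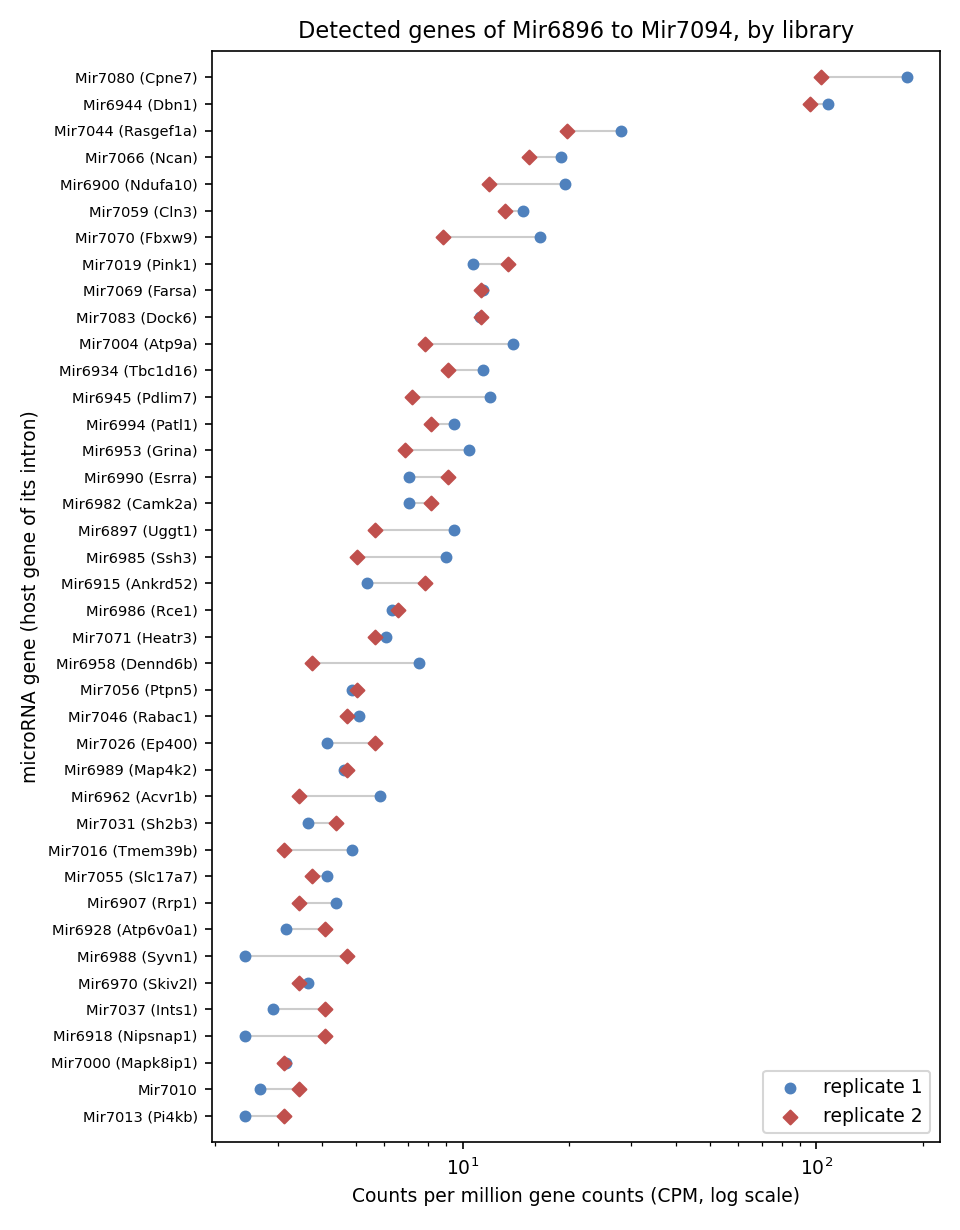
Level of 40 of the 41 detected members in replicate 1 (blue circles) and replicate 2 (red diamonds), in CPM on a log axis, with the host gene in brackets where the hairpin lies wholly in an intron. Mir7080 and Mir6944 stand near 100 CPM or above in both libraries, and 28 members have a mean under 10 CPM.

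Hosts of the lower detected members had varied roles. Mir6982 (29 and 26 counts, 7.60 ± 0.776 CPM) ends at an acceptor of Camk2a, which encodes the alpha subunit of the synaptic calcium-dependent kinase CaMKII. Mir7056 (20 and 16 counts, 4.94 ± 0.107 CPM) lies in Ptpn5, which encodes the striatal-enriched phosphatase STEP. Mir7055 (17 and 12 counts, 3.95 ± 0.264 CPM) lies in Slc17a7, which encodes a vesicular glutamate transporter of cortical excitatory neurons. Other hosts have roles in most cells, such as Uggt1, a glycoprotein-folding enzyme of the endoplasmic reticulum (Mir6897, 39 and 18 counts), Patl1, an mRNA decay factor (Mir6994, 39 and 26 counts), and Esrra, a nuclear receptor of energy metabolism (Mir6990, 29 and 29 counts). Of the members named in this paragraph, only Mir6990 is overlapped by an exon on the same strand. Host messenger RNA was not measured in these libraries, so member levels cannot be set against it. Members below the 30 most abundant, such as Mir7055, and those named above and below for their position or host were chosen for naming after their values were seen.

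For the 30 members at 0 in both libraries, a level of up to 0.730 CPM remains possible in replicate 1 and of up to 0.940 CPM in replicate 2. Mir6969 lies in Clps and Mir7076 in Ctrb1, which encode pancreatic colipase and chymotrypsinogen, Mir7007 in Cpa3 and Mir6949 in Mcpt8, protease genes of mast cells and basophils, and Mir6973a in the lymphotoxin gene Ltb. Mir6972 lies in Cfb and Mir6978 in C3, both of the complement system. Others of the 30 lie in widely expressed genes, such as Mir6910 in Ptbp1, a splicing regulator, and Mir7065 in the ubiquitin ligase gene Cul4a. Mir7094-1 and Mir7094-2 lie in immunoglobulin variable segments, Ighv1-2 and Ighv1-5, and share an 18-base stretch with each other, so reads within it match both places and are counted at neither. Mir7065 shares such a stretch with Gm27475, and its 0 sets no limit either.

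The remaining members were between these extremes. Replicate 1, the deeper library, alone reached 10 counts for 22 members, and replicate 2 alone for 5. Another 103 had counts, but under 10 in each library. Mir6968 in Phf1, a Polycomb-associated protein gene, was among the former with 26 and 6 counts. Mir6906 in Spock2, which encodes a brain proteoglycan of the testican family, was among the latter with 8 and 20. At the threshold itself, Mir7013 was just inside with 10 and 10 counts and Mir6977 just outside with 10 and 9.

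Detection was compared between kinds of intron as a description, with no test. Of the 14 whole-intron members 5 were detected (35.7%): Mir7080, Mir6944, Mir7070, Mir6958 and Mir6970. Exons on the same strand overlap Mir7080, Mir6958 and Mir6970, but not Mir6944 and Mir7070. Of the 172 with only the 3′ end at a splice site 35 were detected (20.3%), of the 4 at a donor 0, and of the 10 in no same-strand intron only Mir7010. The median summed count was 2.5 for the whole-intron kind and 7.5 for the acceptor kind, so the former held both the most abundant members and others near 0. The 14 whole-intron members gave 39.8% of the member counts in replicate 1 and 34.9% in replicate 2.

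Intron length and tail length showed no steady order. Detected were 22.7% of the 66 members in introns under 200 bases, 15.6% of the 64 in introns from 200 to under 1000 bases and 24.6% of the 61 in longer ones. Among the acceptor kind, 20.6% were detected with tails of 1 to 50 bases, 17.3% with 51 to 500 and 22.1% with over 500. Of the 41 members overlapped by an exon 9 were detected, and of the other 160 there were 32. GC content had a median of 60.9% in the detected hairpins, 56.8% in the undetected and 52.9% in the 30 at 0. Computed folding energies had medians of -26.6 kcal/mol for detected and -25.6 kcal/mol for undetected members. The bounds of these length groups were set with the counts in view, and none of these differences was tested.

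Pairs of members in 1 host share its transcript and can be set side by side. Skiv2l, which encodes an RNA helicase of the exosome pathway, holds Mir6970 as a whole intron (15 and 11 counts) and Mir6971 at the acceptor of a later intron (16 and 8 counts). Mir6970 shares an 18-base stretch with Gm27471, so its count can be too low. An exon on the same strand overlaps Mir6970 but not Mir6971, so the count of Mir6970 can also be too high. The pairs in Srebf1, Cmip and Arap3 had 0 to 3 counts per library in all 6 members. Counts that low cannot separate the members of a pair.

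A list of 4 mirtrons from outside the block stood higher than its members. Mir877, Mir1224 and Mir1981, each a whole intron of 82 to 85 bases, had 554 ± 108, 508 ± 136 and 558 ± 4.91 CPM (SD, n = 2). Mir702, which lies in no same-strand intron of this annotation, had 389 ± 25.1 CPM. Each of these 4 was above Mir7080 in both libraries. Among the 29 genes outside the block with a hairpin end at a splice site 12 were detected, with a median of 19.9 CPM. They ranged down to 3.27 CPM, within the range of the members, and Mir3547, a whole intron of Baiap3, had 784 and 116 counts (114 ± 109 CPM).

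The libraries differed for few members. For each of the 406 detected genes an exact binomial test asked whether its counts divided between the libraries as the totals did, and p-values were adjusted over all 406 (Benjamini-Hochberg). It compares 2 libraries, not conditions, and treats reads as independent. Of the 41 detected members 5 (12.2%) were lower in replicate 2 and 0 were higher; over all detected genes 58.1% passed, 34.7% lower and 23.4% higher. Mir7080 was lower with a log2 ratio of CPM of -0.80 (95% interval -0.995 to -0.614; adjusted p = 2.07e-17, exact test), and Mir7070 with -0.91 (-1.60 to -0.26; adjusted p = 0.00758, exact test). Mir6900 followed at -0.71 (adjusted p = 0.0224, exact test), Mir7004 at -0.82 (0.0330) and Mir7044 at -0.50 (0.0485). Scaling by TMM raised all log2 ratios by 0.08, and Mir7080, Mir6900 and Mir7070 still passed as lower while Mir7044 and Mir7004 did not; over all detected genes 27.1% were then lower and 27.3% higher. With DESeq2 size factors only Mir7080 and Mir7070 passed, and Mir6900 had an adjusted p of 0.0566 (exact test). At an unadjusted p under 0.05 there were 6 members.

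Depth limits this comparison. The detected members had a median of 47 summed counts, against 1563 for the other detected genes, and the 95% interval of their log2 ratio had a median width of 1.79, against 0.31. A difference that missed the test is therefore not shown to be absent. The median log2 ratio was -0.11 over the detected members and -0.08 over all detected genes, with 25 members higher in replicate 1 and 16 in replicate 2. Of the 41, 40 lay within 2-fold between the libraries. Across these 41 genes the levels of the libraries had a Pearson r of 0.943 on the log2(CPM + 1) scale and a Spearman rho of 0.863, as a description across genes that share both libraries.

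**Figure D4:**
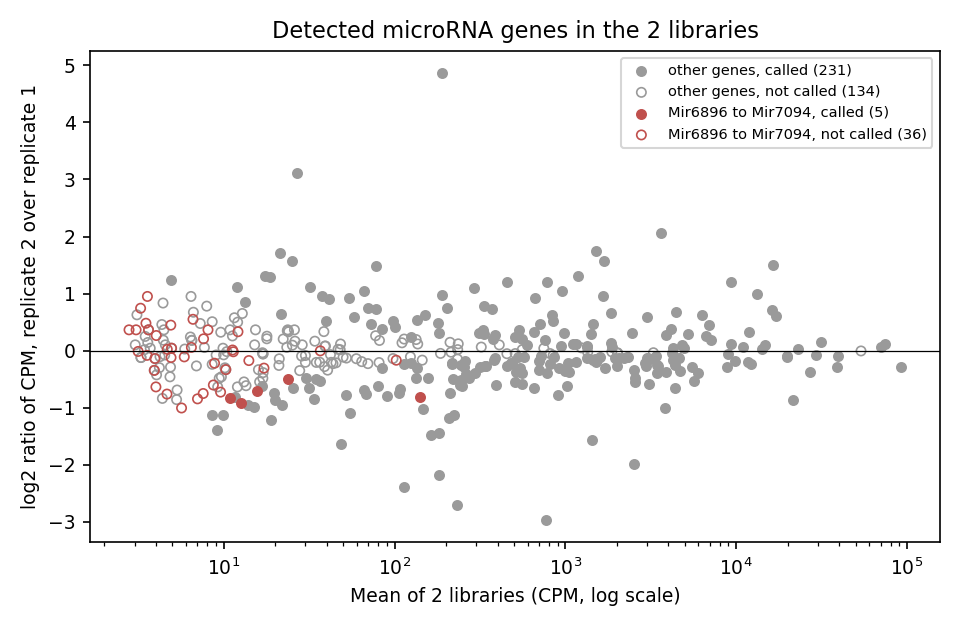
The log2 ratio of CPM in replicate 2 over replicate 1 (vertical axis) against the mean CPM (horizontal, log axis) for the 406 detected genes; members are red, other genes grey, and filled points passed the exact test at an adjusted p under 0.05. The 5 filled red points lie below 0, and most of the other 36 are at the low end of the axis.

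Few counts of the block were on the other strand. No member overlaps another microRNA gene, and counts on the opposite strand came to 3 in replicate 1 and 0 in replicate 2 over all 201 members. With strand ignored for all genes, the members held 0.0770% of the counts and their median log2(CPM + 1) was 1.05, against 0.0717% and 0.99 with strand. The member counts themselves hardly moved, at 3323 and 1997 with strand ignored against 3320 and 1997. Almost all of the change thus lies in the total over all genes by which they are divided. Sequence shared with places that are not annotated as microRNA genes was not analysed here.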

How the data were processed

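The deposited tables hold raw read counts per microRNA gene, per the file layout: 1 column ignoring strand, 1 for the strand of the gene and 1 for the opposite strand. Reads matching several positions (39.1 and 41.4% of reads) were given to no gene. The notes deposited by the authors name mm10 and GENCODE M21; for the aligner and counter, names were not given in the sources used here.

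Counts on the gene's strand were used. All gene IDs matched GENCODE M21, which gave symbols, positions, introns of transcripts that are no microRNA, and the hairpin sequences used for composition. Printed hairpin and mature sequences are from RefSeq (GRCm38.p6). A splice-site match allowed 5 bases in an intron that holds the hairpin. Libraries were compared by an exact binomial test (scipy 1.17.1, Benjamini-Hochberg, threshold 0.05). No edgeR quasi-likelihood test applies to 1 group. The exact test was also run on simulated counts with counting error only, which is what the test assumes. That run cannot show whether its p-values hold for the real libraries. TMM sizes came from edgeR 4.0.16, size factors from DESeq2 1.42.0, folding energies from ViennaRNA 2.7.2. The libraries held 4111167 and 3189903 counts; no molecular identifiers are described, so intervals cover counting error only.

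Members and lists were chosen with earlier results of these data known. Genes set for naming were, by mean CPM, the 30 most abundant of these: members detected, with 10 counts in 1 library only, among the 8 just under that minimum, passing the exact test, with a copy number or letter, or with 10 opposite-strand counts. Not all of these 30 are named in the text. Those named with a mean under 10 CPM were picked with their hosts, positions and values in view. Exceptions from outside the 30 are stated. Alternatives were strand, count minimum, library size, shared sequence, pseudocount, splice-site tolerance, transcript type and each replicate left out. Of the detected members, 1 is counted in all totals but not reported here by name.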

Additional observations from a re-analysis of the deposited data

How the results depend on the processing

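Of 25 alternative values other than those with a replicate left out, 14 stayed within the tolerance (1.5 times for counts of genes, 1 SD for other values) and 11 did not. The 41 detected members became 130 with a minimum of 1 count in each library, 92 with 3 and 4 with 50; with single libraries the range was 46 to 63, the latter from replicate 1 alone. The share of 0.0717% was 0.0262% of all reads and 0.0575% without Mir7080, both by construction; with a replicate left out it ranged from 0.0626 to 0.0808%. The 5 members called between the libraries were 3 with TMM sizes, 2 with DESeq2 size factors, 2 at an adjusted p under 0.01 and 12 (10 lower and 2 higher in replicate 2) when genes with a sum of 10 counts were tested, a set that includes members under the minimum in 1 library. The median log2(CPM + 1) of 0.99 was 0.13 and 3.46 with pseudocounts of 0.1 and 10. The splice-site count ranged from 188 to 192 and the intron count from 189 to 193. Ignoring strand gave 41 detected, the same 5 genes called, a share of 0.0770% and a median of 1.05. DESeq2 size factors lost Mir6900, Mir7044 and Mir7004. The alternatives of hairpins reaching past an intron, all reads as library size and strand for the median were added after the data had been seen. No paired analysis was possible because there was 1 group. Low counts limit all statements on single members outside the leading few.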
